A study of Mus musculus with 32 samples.

Results

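The genes described here are the 5 lysyl oxidases Lox, Loxl1, Loxl2, Loxl3 and Loxl4, the fibrillin genes Fbn1 and Fbn2, and the elastin gene Eln. They were taken by symbol from the count tables of a mouse study, 8 genes of the 55359 listed, and all 8 passed the filter on low counts in both tissues. The study measured poly(A) RNA in bone and in gingiva (gum tissue) of male wild-type C57BL/6J mice aged 9 weeks. Each tissue had 4 groups with 4 libraries each, 32 libraries in all. Mice of the control group (Co) were untreated. In the ligature group (Li) a silk thread was tied around the maxillary left second molar, a standard way to bring about periodontitis, the inflammation that destroys the tissues holding a tooth. In the trauma group (Tra) the same molar was raised with composite resin on its chewing side, a model of traumatic occlusion, or overload of the tooth, and the LiTra group had both. The sources used here do not give the time from treatment to sampling, whether animals were pooled, or whether bone and gingiva came from the same animals. All groups carry the same genotype, and the libraries are bulk tissue, in which fewer cells of a type and less RNA per cell cannot be told apart.

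Lysyl oxidases are copper-dependent enzymes, secreted by cells, that oxidise lysine side chains of collagen and elastin so that the chains become cross-linked. Lox is the founding member, Loxl1 is best known for its role in elastic fibres, and Loxl2, Loxl3 and Loxl4 carry scavenger receptor domains ahead of the catalytic domain. Fibrillin-1 and fibrillin-2 form microfibrils, the scaffold on which elastin is laid down and which also holds latent TGF-beta. The periodontal ligament is rich in collagen and in oxytalan fibres, which are bundles of fibrillin microfibrils with little or no elastin.

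The catalytic domain of a lysyl oxidase binds copper through histidines set close together, and the coding letters of that stretch are shown because they are what the 4 Loxl enzymes have in common, while the RNA of each is described by itself below. The stretch of Lox is not shown here. They were read from the GENCODE M21 transcripts (mouse build GRCm38, not the build named for the deposited counts). Each is 36 coding bases, 5′ to 3′ on the gene's own strand, split over 2 neighbouring exons, with the histidine codons in capitals. Loxl1 lies at chr9:58293717-58294381 on the minus strand (exons 3 and 4). Loxl2 lies at chr14:69682316-69689040 on the plus strand (exons 10 and 11). Loxl3 lies at chr6:83049995-83050128 on the plus strand (exons 10 and 11). Loxl4 lies at chr19:42598804-42599899 on the minus strand (exons 11 and 12).
Loxl1: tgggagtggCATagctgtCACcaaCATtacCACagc
Loxl2: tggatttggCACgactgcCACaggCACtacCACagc
Loxl3: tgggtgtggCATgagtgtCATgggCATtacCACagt
Loxl4: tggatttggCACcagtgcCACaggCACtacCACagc
All 4 hold 4 histidine codons at the same places, as the pattern used to find the stretches required. Loxl2 and Loxl4 share 34 of the 36 bases, whereas the other pairs among these 4 share 24 to 27.

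Elastin is a substrate of these enzymes, and its cross-links form between lysines that sit in pairs among alanines. The stretch below is shown as the first coding stretch of Eln with such a pair. It spans chr5:134729410-134729675 on the minus strand (exons 7 and 8, GRCm38, 54 coding bases), with the lysine codons in capitals.
Eln: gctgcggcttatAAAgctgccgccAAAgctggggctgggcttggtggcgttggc
The Eln coding sequence has 860 codons, of which 38 encode lysine, and it holds 12 pairs of lysine codons with 2 or 3 alanine codons between them. None of the other 7 genes holds such a pair.

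Bone libraries held 38163979 to 70793037 counts in all, and gingiva libraries 36913075 to 50740393. The 8 genes had 156 to 31850 counts per library in bone and 48 to 12143 in gingiva. Levels are given as CPM, counts relative to the library total, with the totals scaled by the TMM method within a tissue. Changes are log2 differences from edgeR ± a standard error (SE). The SE was computed as the size of the change divided by the square root of edgeR's F statistic. A gene was called where its p from edgeR, adjusted by Benjamini-Hochberg over all genes tested, was under 0.05. The bone libraries Co 3, Tra 3 and LiTra 1 stood apart, with 51.2 to 62.9% of their counts in their 10 most abundant genes and 21.3 to 49.9% in markers of nasal glands, so bone results are also given without them. Nasal gland markers also took 24.0% of the counts of bone Li 2 and 14.7% of those of bone Co 4, where the 10 most abundant genes held 29.3 and 24.2%, and at most 6.95% in the other bone libraries. A fit without all 5 of these libraries, chosen after the data were seen, is given as well. Osteocalcin (Bglap), which marks osteoblasts, was at 973 to 1637 CPM in bone Co and 1009 to 2128 CPM in Tra. It was lower in the ligature groups, at 516 to 971 CPM in Li and 380.1 to 937 CPM in LiTra. The summed level of 10 osteoblast and osteocyte markers was not lower there. It was 3762 to 7210 CPM in Co, 4342 to 8405 in Tra, 6328 to 8226 in Li and 5840 to 9246 in LiTra. The keratin Krt14, which marks epithelium, was at 8935 to 20361 CPM in gingiva. Gingiva also held some Bglap, at 90.9 to 229 CPM in Co and 1.74 to 23.2 CPM in LiTra.

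Among the lysyl oxidases of bone, Lox and Loxl3 rose after ligature and Lox, Loxl3 and Loxl4 after the combined treatment, while Loxl2 did not pass the test in any bone comparison. Lox stood at 104, 147, 120.0 and 111 CPM in Co libraries 1 to 4 and at 229.7, 282, 228 and 282 CPM in Li. It stood at 188, 159.9, 123 and 158 CPM in Tra and at 219, 360.3, 302 and 386 CPM in LiTra. Every library with a ligature lay above every library without one, and the lowest LiTra value belonged to LiTra 1. The change against Co was 1.08 ± 0.18 in Li (n = 4 and 4, adjusted p = 0.00596), a 2.12-fold increase, and 1.40 ± 0.18 in LiTra (adjusted p = 0.000398), a 2.63-fold increase. In Tra it was 0.39 ± 0.18 with an adjusted p of 0.52.

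Loxl3, an enzyme of the scavenger receptor subgroup, stood at 38.2, 41.7, 29.6 and 41 CPM in bone Co and at 62.4, 71.1, 70.8 and 106 CPM in Li. In Tra it was at 52.7, 72.9, 34.6 and 56.3 CPM and in LiTra at 50.4, 94.2, 87.2 and 87 CPM. The Li and LiTra libraries all lay above the Co libraries, while Tra overlapped both Co and the ligature groups, and LiTra 1 again was the lowest of its group. The change was 1.04 ± 0.24 in Li (adjusted p = 0.0283) and 1.08 ± 0.24 in LiTra (adjusted p = 0.00715). The Li call was lost when any one of Co 1, Co 2, Co 3, Co 4, Li 2, Li 3 or Li 4 was left out, with adjusted p values of 0.0516 to 0.0919 and changes of 0.86 to 1.10.

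Loxl4 was the least abundant lysyl oxidase of bone. It was at 11.9, 13.5, 6.11 and 11.6 CPM in Co and 15.7, 24.2, 14.6 and 19.5 CPM in Li. It was at 19.8, 17.5, 13.6 and 13.5 CPM in Tra and 11.5, 28, 31 and 31.5 CPM in LiTra. In 3 of the 4 LiTra libraries Loxl4 was above every library of the other groups, and LiTra 1 lay among the controls. The change was 1.24 ± 0.31 in LiTra (adjusted p = 0.0133). In Li it was 0.77 ± 0.30, which did not pass the test (adjusted p = 0.194) although the Li and Co libraries did not overlap.

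Loxl1 and Loxl2 did not pass the test in bone. Loxl1 ranged over 35.1 to 63.2 CPM in the Co libraries, 49.2 to 76 CPM in those of Li, 36.8 to 74.3 CPM in those of Tra and 53.7 to 80.2 CPM in those of LiTra, and all 4 groups overlapped. Its change was 0.30 ± 0.23 in Li and 0.36 ± 0.23 in LiTra (adjusted p = 0.558 and 0.332). Loxl2 had group means of 311 ± 116, 295 ± 145, 309.6 ± 83.6 and 300.1 ± 82.3 CPM (SD, n = 4) in Co, Li, Tra and LiTra. These means lie closer together than the spread inside any group, and the widest spread was in Li, from 155 to 485 CPM. The Co mean includes Co 3, at 138.7 CPM, while the rest of Co lay at 354 to 384 CPM. The Loxl2 change was -0.08 ± 0.37 in Li and -0.05 ± 0.37 in LiTra. Without Co 3, Tra 3 and LiTra 1 it was -0.33 ± 0.29 in Li and -0.13 ± 0.31 in LiTra, and neither passed. Leaving out 1 library at a time gave changes of -0.43 to 0.13 in Li and -0.30 to 0.13 in LiTra, with no call. The closeness of the means thus rests in part on Co 3.

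Of the fibrillins in bone, Fbn1 rose with the ligature and Fbn2 did not. Fbn1 stood at 63.3, 83, 60.2 and 72.6 CPM in Co and 170.1, 121, 156 and 167 CPM in Li. It stood at 66.2, 68.6, 56.6 and 81.6 CPM in Tra and 82.8, 157, 160.1 and 183 CPM in LiTra. All Li libraries lay above all Co and Tra libraries, and so did 3 of the 4 LiTra libraries, while LiTra 1 at 82.8 CPM sat just below the highest Co value. The change was 1.14 ± 0.21 in Li (adjusted p = 0.00879) and 1.06 ± 0.21 in LiTra (adjusted p = 0.00315). It was -0.03 ± 0.20 in Tra (adjusted p = 0.975).

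Fbn2, the fibrillin known mainly from developing tissue, was at 11.2, 12.7, 10.5 and 14.2 CPM in bone Co and 6.32, 9.15, 8.38 and 9.24 CPM in LiTra. Those groups did not overlap, with LiTra the lower, yet the change of -0.55 ± 0.24 did not pass the test (adjusted p = 0.14). It passed with limma-voom (adjusted p = 0.0382) and when Co and LiTra were fitted alone (adjusted p = 0.0447). Over all alternatives tried for this value the adjusted p ran from 0.0382 to 0.899. In Li, Fbn2 was at 6.78, 8.93, 10.9 and 15.4 CPM and overlapped Co, with a change of -0.21 ± 0.24.

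Eln, the elastin gene, was at 39.3, 63.2, 42.3 and 59 CPM in bone Co and 55.8, 75.7, 56.1 and 96.6 CPM in Li. It was at 57.6, 67, 46.7 and 47.2 CPM in Tra and 59.9, 81.7, 81.7 and 108 CPM in LiTra. LiTra held the highest library and had 3 of its 4 libraries above every Co library. Eln rose in LiTra by 0.70 ± 0.22 (adjusted p = 0.0441), and its change in Li was 0.48 ± 0.22 (adjusted p = 0.288). The LiTra call was lost without any one of Co 1, Co 3, Co 4, Li 2, Tra 1, Tra 4, LiTra 2, LiTra 3 or LiTra 4 (adjusted p of 0.0518 to 0.136, changes of 0.55 to 0.77), and also with no filter on low counts (adjusted p = 0.0708). Over all alternatives its adjusted p ran from 0.00898 to 0.699.

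**Figure D1:**
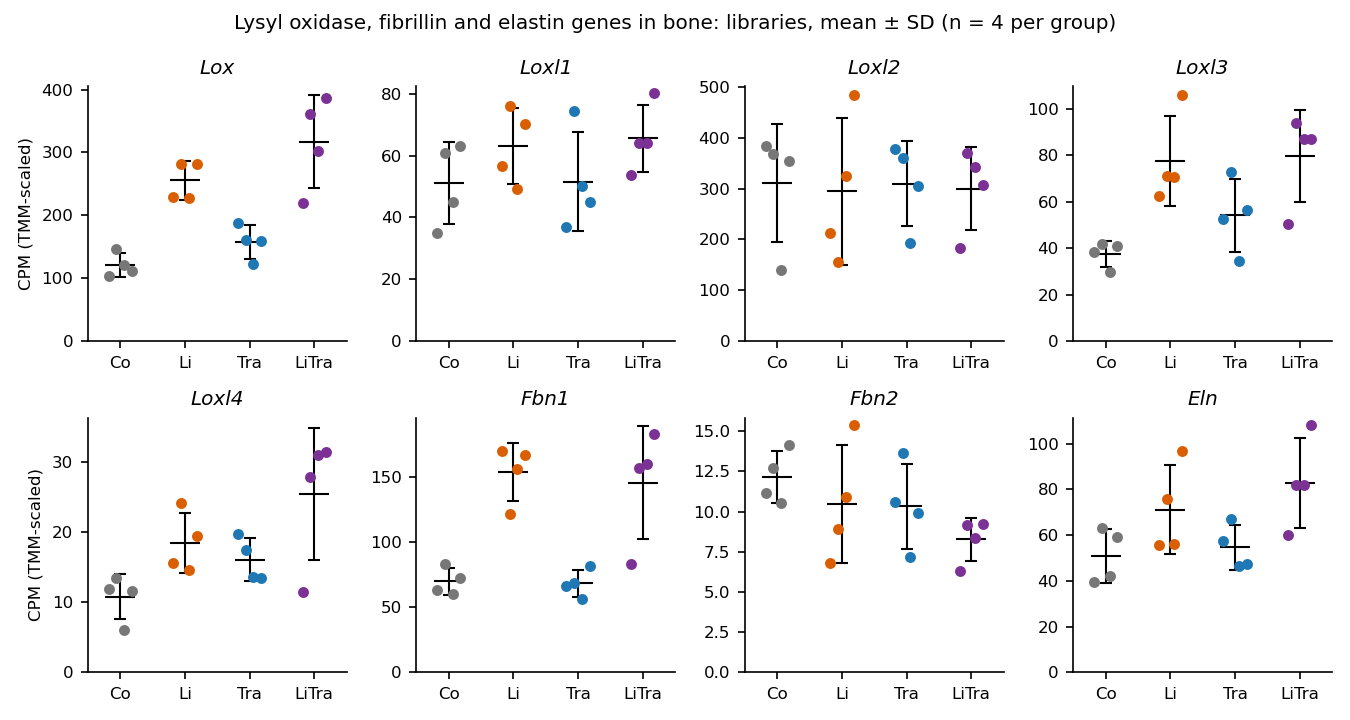
CPM of each gene in the 16 bone libraries (y axis, linear, from 0) by group (x axis); points are libraries, bars the mean and SD of 4. For Lox the Li and LiTra points all lie above the Co and Tra points. The Loxl2 means sit between 295 and 311 CPM in every group, with the low library Co 3, at 138.7 CPM, included in Co.

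Counted together, 3 of the 8 genes were called higher in bone Li against Co, where 3.51% of all 21205 genes tested were called and 2.66% were called higher. In LiTra against Co 5 of 8 were called higher, where 16.9% of all genes were called and 8.29% were called higher. The median change of the 8 genes was 0.63 in Li and 0.88 in LiTra, beside -0.02 and -0.01 over all genes. Both comparisons use the same Co libraries. Scaled by library totals alone, without TMM, all 5 genes kept their direction and none was called in either comparison (Lox 1.22 and 1.49, adjusted p = 1 and 0.231). Under that scaling 0.0236% of all genes were called in Li against Co and 0.0566% in LiTra against Co. None of the 8 was called in Tra against Co, where edgeR called 0% of all genes, 2023 genes had an unadjusted p under 0.05 and DESeq2 called 160. Of the 8 genes, 2 had such an unadjusted p in that comparison, and the changes ran from -0.23 ± 0.24 for Fbn2 to 0.58 ± 0.30 for Loxl4.

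The effect of the ligature was also measured with overload present, as LiTra against Tra in bone. Lox rose by 1.01 ± 0.18 (adjusted p = 0.00529) and Fbn1 by 1.09 ± 0.21 (adjusted p = 0.00737), so 2 of 8 genes were called, where 5.56% of all genes were called and 3.07% were called higher. With LiTra and Tra fitted alone, the Fbn1 change of 1.10 was not called (adjusted p = 0.052), and by library totals alone neither gene was called (changes of 1.10 and 1.22). Of all genes 2.23% were called with LiTra and Tra fitted alone and 0.0236% by library totals alone. Over all alternatives the adjusted p of Fbn1 ran from 6.09e-06 to 0.726 and that of Lox from 9.25e-07 to 0.783. Loxl3, Loxl4 and Eln had changes of 0.56 ± 0.24, 0.66 ± 0.30 and 0.60 ± 0.22 and did not pass. Loxl4 passed without LiTra 1, at 0.91 with an adjusted p just under the threshold (0.05 after rounding), within a range over all alternatives of 0.0132 to 0.999.

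The addition of overload to the ligature gave no call among the 8 genes in bone. In LiTra against Li edgeR called 0% of all genes, 1352 genes had an unadjusted p under 0.05 and DESeq2 called 106. Loxl4 had the largest difference, 0.46 ± 0.30, followed in size by Fbn2 at -0.34 ± 0.24 and Lox at 0.31 ± 0.18. The interaction, LiTra minus Tra set against Li minus Co, was called for 0% of all genes as well (644 with an unadjusted p under 0.05, and 8 called by DESeq2). For the 8 genes it ran from -0.49 ± 0.34 for Loxl3 to 0.12 ± 0.31 for Eln.

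Without the bone libraries Co 3, Tra 3 and LiTra 1 all of these calls stood, and the standard errors of the called genes were smaller except for Eln. In Li against Co the changes became 1.08 ± 0.15 for Lox, 0.94 ± 0.16 for Loxl3 and 1.07 ± 0.14 for Fbn1 (adjusted p = 0.0033, 0.00704 and 0.00309). In LiTra against Co they became 1.53 ± 0.16 for Lox, 1.14 ± 0.17 for Loxl3, 1.28 ± 0.19 for Loxl4, 1.18 ± 0.15 for Fbn1 and 0.74 ± 0.24 for Eln, with adjusted p values of 0.000298 to 0.0442. In LiTra against Tra Loxl4 was called in addition, at 0.84 ± 0.19 (adjusted p = 0.0166). In this fit 8.22% of all genes were called in Li against Co, 22.4% in LiTra against Co and 10.4% in LiTra against Tra.

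Without all 5 bone libraries with over 10% nasal gland counts, which left 2 libraries in Co and 3 in each other group, 2 calls were lost. They were Loxl3 in Li, at 0.99 ± 0.22 (adjusted p = 0.0604), and Eln in LiTra, at 0.82 ± 0.30 (adjusted p = 0.0974). Lox and Fbn1 were still called in Li, at 0.97 ± 0.18 and 1.16 ± 0.14 (adjusted p = 0.0412 and 0.0177). In LiTra the calls of Lox, Loxl3, Loxl4 and Fbn1 stood, with changes of 1.48 ± 0.19, 1.17 ± 0.22, 1.25 ± 0.19 and 1.19 ± 0.14. In this fit 1.38% of all genes were called in Li against Co and 14.9% in LiTra against Co.

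Markers of several cell types moved with these changes in bone, where 3.51% of all genes were called in Li against Co and 16.9% in LiTra against Co. The summed level of 10 fibroblast markers was 1836 to 2285 CPM in Co, 2339 to 4054 in Li and 2549.7 to 4266 in LiTra, although 1 of the 10 was called higher in each of these comparisons with Co. That of 8 osteoclast markers was 1757 to 3346 CPM in Co, 4740 to 6549 in Li and 4912 to 8089 in LiTra, with 6 and 7 of the 8 called higher. Erythroid markers, 8 genes, fell from 22781 to 45295 CPM in Co to 1712 to 5927 CPM in LiTra, and all 8 were called lower. The part of these cells in the changes of the 8 genes was not tested.

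In gingiva the ligature was followed by higher Lox, Loxl2, Loxl3 and Fbn1. Lox stood at 32.5, 44.2, 37.2 and 18.5 CPM in Co and 109, 214, 58.2 and 76.6 CPM in Li. It stood at 25.9, 28.2, 38.2 and 28.2 CPM in Tra and 159.8, 135, 157 and 154 CPM in LiTra. Both ligature groups lay above Co and Tra with no overlap. The 4 LiTra libraries were close together, whereas Li 2 was far above Li 3. The change against Co was 1.79 ± 0.33 in Li (adjusted p = 0.00699), a 3.45-fold increase, and 2.19 ± 0.34 in LiTra (adjusted p = 0.000795), a 4.57-fold increase. In Tra the change was -0.14 ± 0.33 (adjusted p = 0.99).

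Loxl2, which showed no call in bone, rose in gingiva. It was at 36.1, 44.8, 58.1 and 22.8 CPM in Co and 81.7, 123, 62.7 and 71.1 CPM in Li. It was at 48.3, 40.7, 33.4 and 39.2 CPM in Tra and 66.4, 76.5, 112 and 91.8 CPM in LiTra. Every ligature library lay above every library without a ligature, the nearest being Li 3 and Co 3. The change was 1.07 ± 0.26 in Li (adjusted p = 0.0251) and 1.10 ± 0.26 in LiTra (adjusted p = 0.00835). The Li call was lost without any one of Co 1, Co 4, Li 1 or Li 2 (adjusted p of 0.0553 to 0.0986, changes of 0.82 to 1.07). It was also lost with limma-voom, at 0.90 ± 0.25 (adjusted p = 0.0509), where 5.03% of all genes were called.

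Loxl3 was at 10.7, 11.5, 15.1 and 8.65 CPM in gingiva Co and 25.2, 51.5, 20.7 and 26.8 CPM in Li. It was at 9.9, 18.8, 12.4 and 16.6 CPM in Tra and 26.4, 37, 42.5 and 28.1 CPM in LiTra. The ligature groups did not overlap Co or Tra. Loxl3 rose by 1.44 ± 0.28 in Li (adjusted p = 0.00897) and by 1.55 ± 0.28 in LiTra (adjusted p = 0.00211). In GENCODE M21, 11.6% of the Loxl3 exon bases overlap Htra2, a mitochondrial protease gene on the opposite strand, and whether the counting used strand is not given in the sources used here. Htra2 rose less, by 0.49 ± 0.14 in Li (adjusted p = 0.0483) and 0.48 ± 0.14 in LiTra (adjusted p = 0.0235), and its changes in bone were 0.10 and -0.05. The 5 annotated genes that overlap exons of Lox, Loxl2, Fbn1 and Eln had at most 101 counts in any library. Fbn1 had the largest overlap of the 8 genes, 20.1% of its exon bases, with Gm9913, which had at most 17 counts. In Fbn2 0.976% of the exon bases overlap Gm26507, whose counts are not given here.

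Loxl1 and Loxl4 did not pass the test in gingiva. Loxl1 was at 13, 15, 13.6 and 8.94 CPM in Co and 16.6, 63.3, 23.5 and 20.2 CPM in Li, and at 10.1, 16.1, 33.5 and 15.5 CPM in LiTra. Li lay wholly above Co, with Li 2 far above the rest, and LiTra overlapped Co. The change was 1.29 ± 0.40 in Li (adjusted p = 0.0623) and 0.57 ± 0.40 in LiTra (adjusted p = 0.333). It passed in Li without Li 3, Li 4 or LiTra 3, with changes of 1.29 to 1.47 and adjusted p values of 0.0408 to 0.0488, and by DESeq2 (adjusted p = 0.0102), within a range over all alternatives of 0.0102 to 0.269. Without Li 2, the highest library, the change was 0.67 (adjusted p = 0.269).

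Loxl4 alone among the lysyl oxidases had lower means in gingiva with a ligature. It was at 5.42, 7.28, 4.53 and 4.76 CPM in Co and 3.77, 4.31, 3.25 and 3.24 CPM in Li. It was at 6.33, 3.38, 3.52 and 4.07 CPM in Tra and 2.64, 3.5, 5.33 and 3.9 CPM in LiTra. All Li libraries lay below all Co libraries, and LiTra overlapped Co through LiTra 3. The change was -0.59 ± 0.25 in Li and -0.52 ± 0.25 in LiTra, and neither passed (adjusted p = 0.165 and 0.157).

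Fbn1 had the largest Li change of the 8 genes in gingiva. It stood at 24.6, 41.5, 29.9 and 29.3 CPM in Co and 115, 258, 97.1 and 88.3 CPM in Li. It stood at 64.5, 70.4, 39.1 and 36 CPM in Tra and 111, 108, 181 and 142 CPM in LiTra. The ligature groups lay above Co and Tra, and Li 2 was far above the other Li libraries. Fbn1 rose by 2.16 ± 0.34 in Li (adjusted p = 0.00288), a 4.46-fold increase, and by 2.11 ± 0.34 in LiTra (adjusted p = 0.00091), a 4.33-fold increase. In Tra, 2 of the 4 libraries were above the highest Co library and the change of 0.74 ± 0.32 did not pass (adjusted p = 0.717).

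Fbn2 and Eln did not pass against Co in gingiva. Fbn2 was at 2.38, 2.2, 1.75 and 2.01 CPM in Co and 1.95, 3.93, 2.42 and 2.78 CPM in Li. It was at 1.18, 2.5, 1.98 and 1.37 CPM in Tra and 2.28, 3.24, 5.56 and 3.48 CPM in LiTra. LiTra lay above Co in 3 of 4 libraries, with LiTra 3 the highest. The change in LiTra against Co was 0.80 ± 0.31 (adjusted p = 0.0739). Without LiTra 1 it was 0.98 and passed (adjusted p = 0.0438), as it did by DESeq2 and limma-voom (adjusted p = 0.041 and 0.0396), within a range over all alternatives of 0.0396 to 0.251.

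Eln was at 44.8, 49.3, 40.5 and 45.8 CPM in gingiva Co and 59.2, 86, 78.2 and 72.3 CPM in Li. It was at 74.6, 62.9, 60.1 and 54.4 CPM in Tra and 27.9, 47.6, 88 and 47.7 CPM in LiTra. Li and Tra both lay wholly above Co, and LiTra reached from below every Co library to above every Li library. The change was 0.71 ± 0.24 in Li (adjusted p = 0.0859), 0.48 ± 0.24 in Tra (adjusted p = 0.782) and 0.23 ± 0.24 in LiTra (adjusted p = 0.555). The Li change passed without LiTra 1 or LiTra 3 (0.73 and 0.71, adjusted p = 0.0325 and 0.0214), by DESeq2 (adjusted p = 0.031) and with Co and Li fitted alone (adjusted p = 0.0313). Over all alternatives its adjusted p ran from 0.0214 to 0.219.

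**Figure D2:**
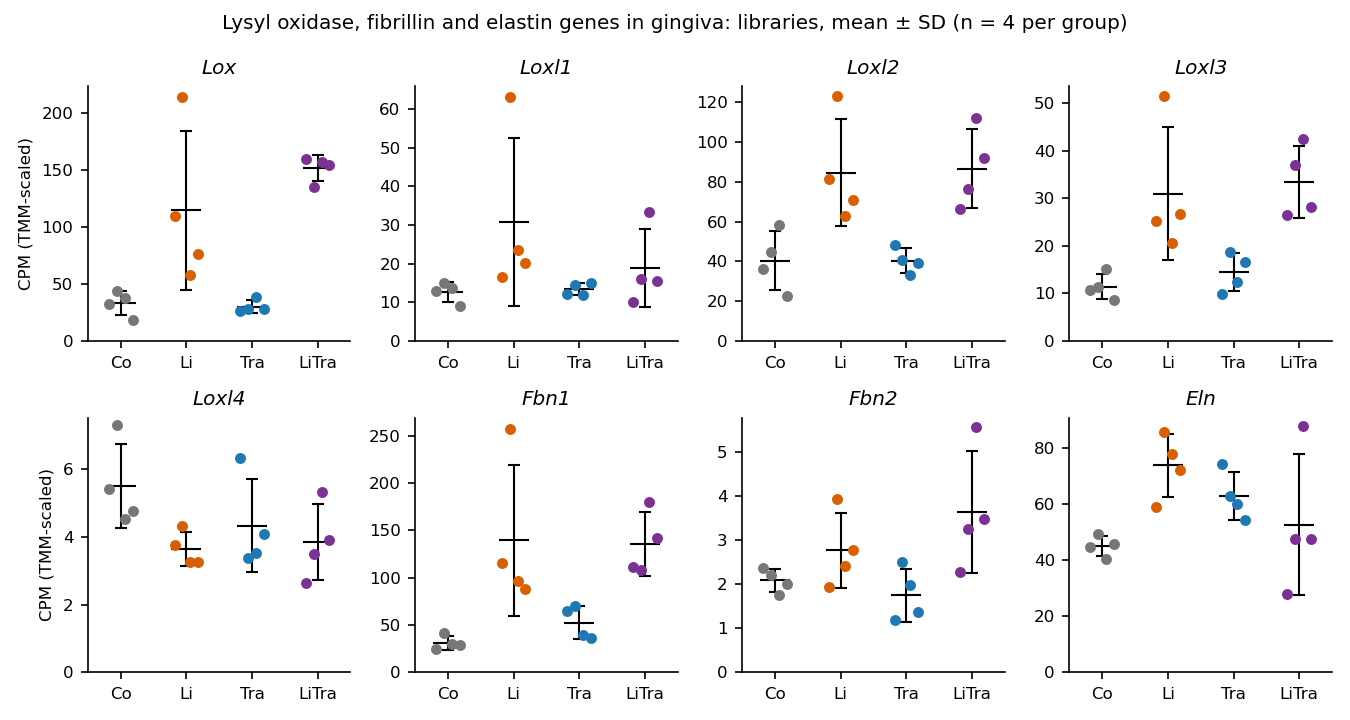
CPM of each gene in the 16 gingiva libraries (y axis, linear, from 0) by group (x axis); points are libraries, bars the mean and SD of 4. Lox in LiTra is tightly grouped at 135 to 160 CPM, while Eln in LiTra spreads from 27.9 to 88.0 CPM around the control range.

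In gingiva 4 of the 8 genes were called higher in Li against Co, where 7.49% of all 20143 genes tested were called and 5.19% were called higher. In LiTra against Co 4 of 8 were called higher as well, where 22.9% of all genes were called and 11.4% were called higher. The median change of the 8 genes was 1.18 in Li and 0.95 in LiTra, beside 0.00 and -0.01 over all genes, and both comparisons share the Co libraries. With Co and Li fitted alone the Li calls of Lox, Loxl2 and Loxl3 were lost (changes of 1.78, 1.06 and 1.43, adjusted p = 0.065, 0.0954 and 0.0505), and Fbn1 and Eln were called. In that fit 2.16% of all genes were called. Over all alternatives the adjusted p ran from 2.68e-06 to 0.065 for Lox, 0.00142 to 0.0986 for Loxl2 and 3.11e-05 to 0.0505 for Loxl3.

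The ligature effect with overload present, LiTra against Tra, called 5 of the 8 genes higher in gingiva, where 18.8% of all genes were called and 9.36% were called higher. Lox rose by 2.33 ± 0.34 (adjusted p = 0.000947), Fbn1 by 1.37 ± 0.33, Loxl3 by 1.21 ± 0.28 and Loxl2 by 1.10 ± 0.26. Fbn2 rose by 1.05 ± 0.31 (adjusted p = 0.029), with LiTra 1 at 2.28 CPM inside the Tra range. The Fbn2 call was lost without any one of Tra 1, Tra 4, LiTra 3 or LiTra 4 (adjusted p of 0.057 to 0.0998, changes of 0.77 to 1.07) and with LiTra and Tra fitted alone (adjusted p = 0.0637), within a range of 0.00705 to 0.0998. Eln was at -0.25 ± 0.24 and passed, as lower in LiTra, without LiTra 3 (-0.62, adjusted p = 0.033), within a range over all alternatives of 0.033 to 0.934.

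The addition of overload to the ligature called none of the 8 genes in gingiva, where edgeR called 0.0844% of all genes, or 17. DESeq2 called 1413 genes in that comparison and limma-voom 434, with none of the 8 among them. Loxl1 had a change of -0.72 ± 0.39 and Eln of -0.49 ± 0.24 (adjusted p = 0.358 and 0.3). In Tra against Co edgeR called 0% of all genes, 1323 had an unadjusted p under 0.05, Fbn1 being the 1 of the 8, and DESeq2 called 92. The interaction was called for 0% of all genes (2289 with an unadjusted p under 0.05, and 183 called by DESeq2). Eln had an interaction of -0.97 ± 0.34, with an unadjusted p of 0.0126 and an adjusted p of 0.331.

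**Figure D3:**
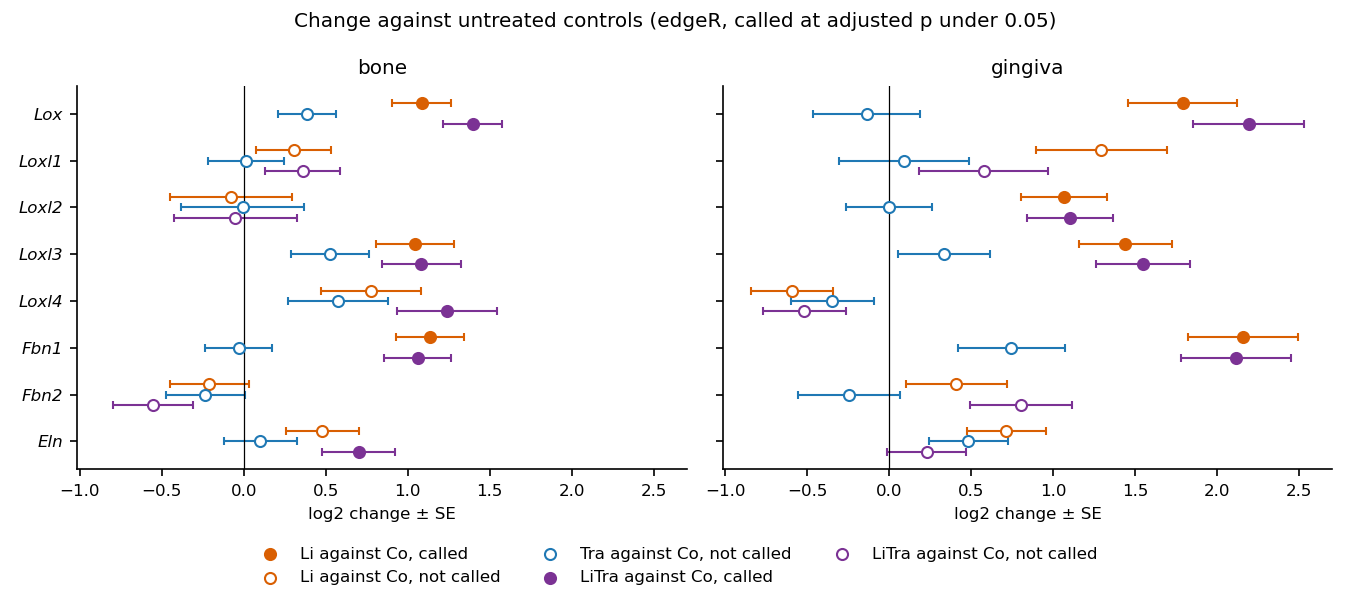
Change of each gene against Co as log2 ± SE (x axis) in bone (left) and gingiva (right), with filled symbols for adjusted p under 0.05. Filled symbols appear only for Li and LiTra, and Loxl2 has them in gingiva alone.

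Markers of other cells moved in gingiva too, where 7.49% of all genes were called in Li against Co and 22.9% in LiTra against Co. The sum of 10 fibroblast markers was 939 to 1430 CPM in Co, 1439 to 2019 in Li and 1750 to 2123 in LiTra, with 2 and 3 of the 10 called higher and, in LiTra, 1 lower. The sum of 10 endothelial markers was 222 to 259 CPM in Co, 352 to 593 in Li and 337 to 472 in LiTra, with 7 and 8 called higher and, in LiTra, 1 lower. The sum of 8 osteoclast markers was 145 to 179 CPM in Co, 481 to 878 in Li and 688 to 1160.5 in LiTra, and all 8 were called higher in both. Of 9 osteoblast and osteocyte markers tested 2 were called lower in Li, and in LiTra 5 were lower and 1 higher. The sum of 8 macrophage markers was 140.0 to 174 CPM in Co, 300.0 to 776 in Li and 398 to 545 in LiTra. The sum of 11 epithelial markers was 75440.3 to 93754 CPM in Co and 42620.2 to 56556 CPM in LiTra, with 7 called lower and 2 higher. Of 10 smooth muscle markers, cells that make elastin in vessels, 4 were called lower and 1 higher in LiTra. Their part in the changes of the 8 genes was not tested.

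The untreated tissues differed in 7 of the 8 genes. In a fit of all 32 libraries 53.6% of the 22559 genes tested were called between bone Co and gingiva Co, 27.2% higher in bone, and 7 of the 8 genes were called higher in bone. Loxl2 differed most, at 312 ± 122 CPM in bone and 40.6 ± 15.2 CPM in gingiva (SD, n = 4), a difference of 2.94 ± 0.37 (adjusted p = 1.82e-07). Fbn2 followed, at 12.1 ± 1.67 and 2.09 ± 0.258 CPM, with a difference of 2.53 ± 0.29 (adjusted p = 4.98e-08). Lox, Loxl1, Loxl3 and Fbn1 were higher in bone by 1.15 to 2.00, without overlap between the tissues. Loxl4 was higher by 0.97 ± 0.29 (adjusted p = 0.00564), with overlapping libraries. Eln, at 50.7 ± 11.9 and 45.2 ± 3.4 CPM, differed by 0.17 ± 0.24, which did not pass (adjusted p = 0.586).

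Whether a treatment acted differently in the tissues was tested as the bone effect minus the gingiva effect. For LiTra against Co 12.3% of all genes were called, 5.59% higher and 6.68% lower, and 2 of the 8 genes were called. Loxl4 had a difference of 1.76 ± 0.40 (adjusted p = 0.00604), rising in bone while its change in gingiva was below 0, and it was called in all 32 fits that left out 1 library. Fbn2 had a difference of -1.34 ± 0.39 (adjusted p = 0.0241) in the other direction, with changes below 0 in bone and above 0 in gingiva. The Fbn2 call was lost without bone Co 4, bone LiTra 1, gingiva Co 3 or gingiva LiTra 3 (adjusted p = 0.0515, 0.0535, 0.0502 and 0.0746, differences of -1.27, -1.24, -1.27 and -1.07). Without the 3 bone libraries that stood apart the differences were 1.77 ± 0.32 for Loxl4 and -1.34 ± 0.41 for Fbn2 (adjusted p = 0.00095 and 0.0284). Without all 5 bone libraries with over 10% nasal gland counts Loxl4 was still called, at 1.72 ± 0.34 (adjusted p = 0.00335), and Fbn2 was not, at -1.27 ± 0.45 (adjusted p = 0.0692). Scaled by library totals alone neither was called, at 1.74 and -1.39 (adjusted p = 0.213 and 0.342), and 0.0754% of all genes were called. The adjusted p over all alternatives ran from 0.000268 to 0.213 for Loxl4 and 0.00602 to 0.342 for Fbn2.

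Loxl2 and Fbn1 had differences of -1.15 ± 0.48 and -1.04 ± 0.41 between the tissues in LiTra, which did not pass (adjusted p = 0.124 and 0.0942), so a bone change unlike that in gingiva was not shown for them. Loxl2 passed without bone Co 3 (-1.40, adjusted p = 0.0394), without the 5 bone libraries (-1.29 ± 0.41, adjusted p = 0.0467) and by limma-voom (adjusted p = 0.04), and Fbn1 without gingiva Li 2 (-1.04, adjusted p = 0.039), by limma-voom (adjusted p = 0.0265) and with the 4 groups fitted alone (adjusted p = 0.0384). Over all alternatives the adjusted p ran from 0.0394 to 0.547 for Loxl2 and 0.0265 to 0.561 for Fbn1. For Li against Co 2.04% of all genes were called and none of the 8. Loxl4 came nearest at 1.37 ± 0.40 (adjusted p = 0.0684). It passed without bone LiTra 1 (1.37, adjusted p = 0.039), and Loxl4 and Loxl2 passed without bone Co 3, Tra 3 and LiTra 1, at 1.15 ± 0.31 and -1.41 ± 0.41 (adjusted p = 0.033 and 0.0425), within ranges of 0.0133 to 0.727 and 0.0425 to 0.88.

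**Figure D4:**
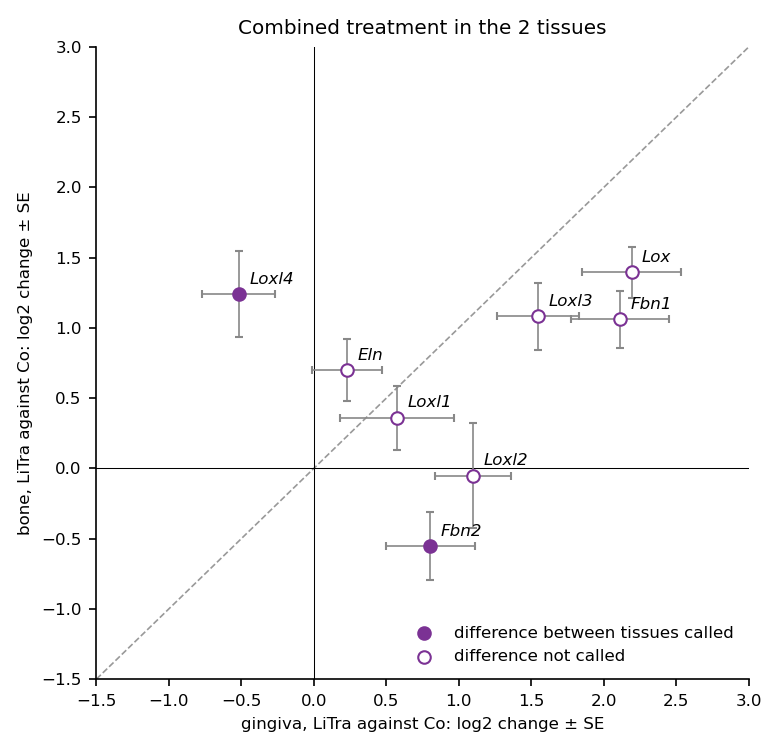
Change in LiTra against Co as log2 ± SE in gingiva (x axis) and bone (y axis) for the 8 genes, with the line of equal change dashed and filled symbols where the difference between tissues was called. Loxl4 lies at 1.24 in bone and -0.52 in gingiva, and Fbn2 at -0.55 in bone and 0.80 in gingiva.

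Since Loxl4 was the lysyl oxidase whose combined-treatment effect differed between the tissues, the non-exonic part of its promoter window is shown. Of the 8 genes, 2 (Fbn1 and Loxl4) were found in the RefSeq promoter table (GRCm38.p6), which gives a window around each gene's start. The window of Fbn1 lay wholly in annotated exons. The Loxl4 stretch is chr19:42612814-42613056 on the minus strand, 243 bases, with matches to the searched motifs in capitals.
Loxl4: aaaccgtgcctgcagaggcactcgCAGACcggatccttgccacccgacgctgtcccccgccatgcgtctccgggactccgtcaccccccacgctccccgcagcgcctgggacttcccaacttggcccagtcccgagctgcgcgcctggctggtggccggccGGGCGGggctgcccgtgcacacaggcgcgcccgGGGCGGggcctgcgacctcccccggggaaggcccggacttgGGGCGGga
Searched on both strands, it held 3 GC boxes (GGGCGG) and 1 SMAD box (CAGAC), and none of these matches overlap. Among the 32851 promoters of the table, 35.7% hold a GC box and 49.6% a SMAD box. The shares of promoters are over whole windows, exonic bases included, and the whole Loxl4 window held the same numbers of matches as its stretch. The TATA box (TATAAA), the AP-1 site (TGANTCA), the hypoxia core (ACGTG) and the CCAAT box (CCAAT) were not found, and 13.6%, 7.81%, 19.6% and 37.4% of promoters hold them. A match is letters in a window, and no binding was measured here.

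Levels of different genes were compared per kilobase of transcript (GENCODE M21 length), by their group means. In bone Co the order was Loxl2 (58.5 ± 21.7 CPM per kb, SD, n = 4), Lox (25.4 ± 3.95), Loxl1 (15.5 ± 4.05), Eln (13.2 ± 3.09), Loxl3 (9.18 ± 1.35), Fbn1 (7.09 ± 1.05), Loxl4 (2.89 ± 0.864) and Fbn2 (1.1 ± 0.148). The libraries overlapped between Loxl2 and Lox, between Loxl1 and Eln and between Loxl3 and Fbn1, and not between the other neighbours. In bone Li Loxl2 was again first at 55.4 ± 27.3 CPM per kb and Lox next at 53.9 ± 6.51. In bone LiTra Lox came first at 66.9 ± 15.6 CPM per kb and Loxl2 next at 56.5 ± 15.5, again with overlap.

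In gingiva Co Eln came first at 11.7 ± 0.945 CPM per kb, then Loxl2 at 7.61 ± 2.79 and Lox at 6.99 ± 2.29, each overlapping the next. Loxl1, Fbn1 and Loxl3 followed at 2.80 to 3.83 CPM per kb, then Loxl4 at 1.47 ± 0.334 and Fbn2 at 0.189 ± 0.0245. In gingiva Li Lox came first at 24.1 ± 14.7 CPM per kb, overlapping Eln at 19.2 ± 2.93. In gingiva LiTra Lox came first at 31.9 ± 2.36 CPM per kb and its lowest library, at 28.5, lay above every library of the other 7 genes. Fbn2 was last in every group of both tissues.

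Ratios inside a library do not depend on its scaling, and the share of Fbn2 against Fbn1 separated libraries with a ligature from those without in bone. Fbn2 counts per 100 Fbn1 counts were 17.7, 15.3, 17.5 and 19.5 in Co and 16, 19.9, 12.7 and 12.2 in Tra. They were 3.99, 7.36, 6.98 and 9.24 in Li and 7.62, 5.85, 5.24 and 5.06 in LiTra. All 8 ligature libraries lay below all 8 others, LiTra 1 included, with means of 17.5 ± 1.71 in Co and 5.94 ± 1.17 in LiTra (SD, n = 4). In gingiva the ratio was 9.66, 5.31, 5.84 and 6.87 in Co, and every other library was lower, with Tra at 3.56 ± 1.33, Li at 2.21 ± 0.753 and LiTra at 2.65 ± 0.484 as means. These ratios are counts, not corrected for length, and are given as descriptions without a test.

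The ratio of elastin to fibrillin-1 RNA was lower with a ligature in gingiva. Eln counts per 100 Fbn1 counts were 182, 119, 135 and 156 in Co and 116, 89.3, 154 and 151 in Tra. They were 51.3, 33.4, 80.5 and 81.9 in Li and 25.1, 44, 48.8 and 33.5 in LiTra. The ligature groups lay below Co and Tra without overlap. In bone the same ratio was 72.4 ± 8.22 in Co, 47.3 ± 15 in Li, 81.2 ± 16.9 in Tra and 58.7 ± 9.76 in LiTra, and the groups overlapped.

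Lox was also set against Col1a1, the gene of the main collagen chain it cross-links. In gingiva Lox counts per 100 Col1a1 counts were 3.32, 3.54, 2.05 and 2.44 in Co and 15.6, 10.3, 4.83 and 5.09 in Li. They were 4.96, 6.07, 3.5 and 1.5 in Tra and 36.4, 24.4, 15.1 and 26 in LiTra. Both ligature groups were above Co, and LiTra overlapped Li only through its library 3. The means were 2.84 ± 0.708 in Co and 25.5 ± 8.71 in LiTra (SD, n = 4), while Lox itself rose 4.57-fold in LiTra. A ratio can move with either of its genes, and the change of Col1a1 by itself is not given here. In bone the ratio was 1.26, 1.5, 3.55 and 0.706 in Co and 3.45, 3.65, 3.16 and 3.57 in LiTra, and Co 3, one of the libraries that stood apart, was the single Co library inside the LiTra range.

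**Figure D5:**
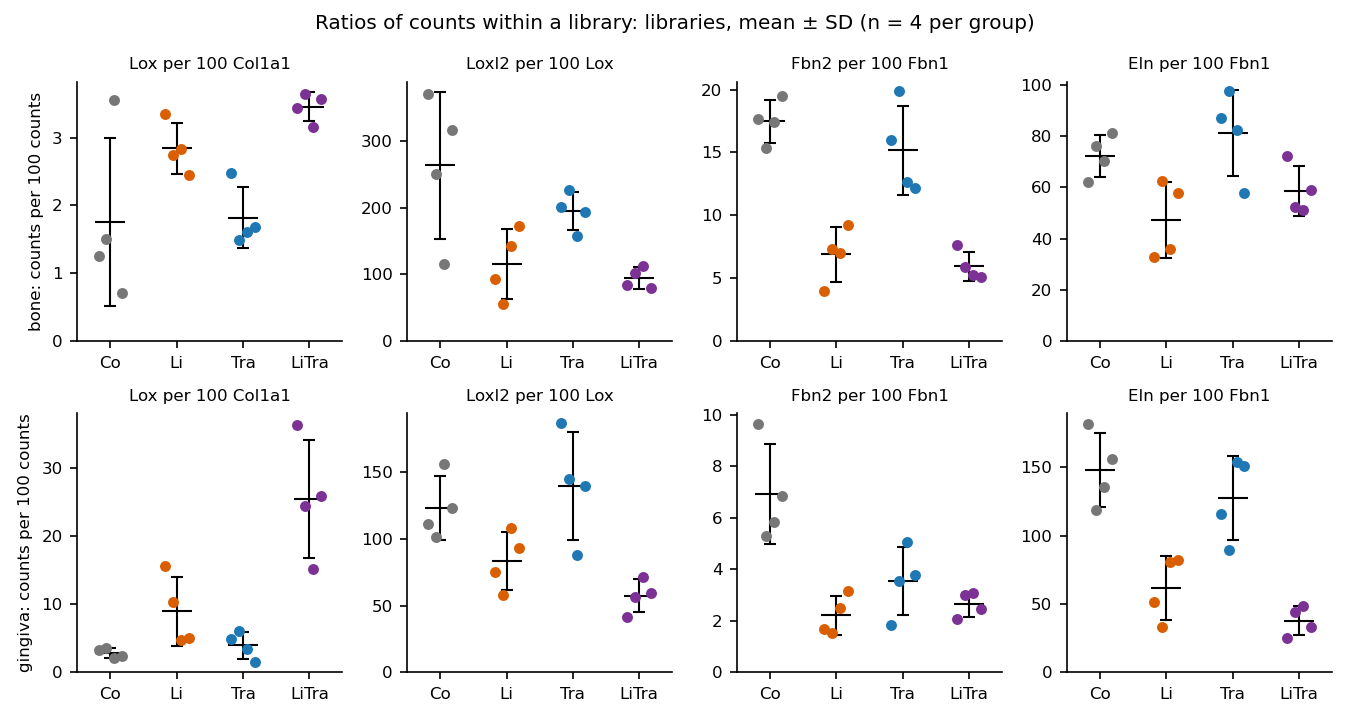
Counts of one gene per 100 counts of another in each library (y axis, linear, from 0) for bone (top) and gingiva (bottom) by group (x axis); points are libraries, bars the mean and SD of 4. In bone Fbn2 per 100 Fbn1 is 3.99 to 9.24 in Li and LiTra and 12.2 to 19.9 in Co and Tra.

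Across the 16 bone libraries the log2 CPM of Lox followed that of Loxl3 (Pearson r = 0.88), Fbn1 (0.88) and Eln (0.84), and hardly that of Loxl2 (0.11) or Fbn2 (-0.26). Across the 16 gingiva libraries Lox followed Loxl2 (0.91), Loxl3 (0.91) and Fbn1 (0.87), and not Eln (0.089). These libraries share treatment groups and scaling, so the values describe them only. Among 13988 genes in bone and 13959 in gingiva the 3 most like Lox were Zfp948, Rai14 and Capn6 in bone (r = 0.97 to 0.98) and Slc4a7, Fndc3b and Mcam in gingiva (r = 0.96 to 0.98). Those most like Fbn1 were Capn2, AI506816 and Galnt6 in bone and Lgmn, Nxpe5 and Thy1 in gingiva. For Eln they were Mgp, an inhibitor of calcification, Cdr2l and Pdia5 in bone (r = 0.90 to 0.93), and Axl, Folr2 and Ergic3 in gingiva (r = 0.84 to 0.85).

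Other genes of the elastic fibre were described by a list of 22 partners (fibulins, latent TGF-beta binding proteins, MFAPs, emilins and related genes). In bone none was called in Li against Co (median 0.11), while in LiTra 1 rose and 1 fell. These were Efemp2, the fibulin-4 gene, which is needed to bring Lox to elastin, at 1.14 ± 0.23 (adjusted p = 0.00429), and Ltbp4, also needed for elastic fibres, at -0.85 ± 0.26 (adjusted p = 0.0367). In gingiva 6 rose in Li (median 0.23) and 7 rose and 1 fell in LiTra (median 0.09). Ltbp1 rose by 1.09 ± 0.16 in Li, Ltbp2 by 1.33 ± 0.25 and Fbln2 by 1.38 ± 0.26, and Ltbp4 fell by 1.37 ± 0.28 in LiTra (adjusted p = 0.0036). The medians over all genes are those given above. Of all genes 3.51% were called in bone Li, 16.9% in bone LiTra, 7.49% in gingiva Li and 22.9% in gingiva LiTra. In bone LiTra the share called in this list was smaller than that over all genes.

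Collagen processing and cross-link partners, 18 genes, were called higher in 2 cases in bone Li, 11 in bone LiTra, 9 in gingiva Li and 9 in gingiva LiTra, with 1 lower in the last. In the same order, 2.66, 8.29, 5.19 and 11.4% of all genes were called higher. The lysyl hydroxylase gene Plod2, whose product marks collagen lysines for a stable cross-link, rose by 1.20 ± 0.22 in gingiva Li and 1.76 ± 0.22 in gingiva LiTra. Plod1 rose by 0.72 ± 0.17 in bone Li (adjusted p = 0.0304), and Pcolce, an enhancer of procollagen cleavage, by 0.95 ± 0.24. Of 10 collagen substrates 2 rose in bone Li, 5 in bone LiTra and 4 in each of gingiva Li and LiTra. The 2 in bone Li were type IV chains, and the 4 in gingiva Li and in gingiva LiTra were chains of types IV, V and VI. The listed type I and type III chains were not called higher in bone Li, gingiva Li or gingiva LiTra. The basement membrane chain Col4a1 rose by 1.14 ± 0.22 in bone Li and by 2.41 ± 0.33 in gingiva Li.

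Proteases that cleave elastin were listed as 12 genes, of which 10 were tested. In bone 2 rose in Li and 3 in LiTra, and in gingiva 3 rose in each. Of all genes 2.66% were called higher in bone Li, 8.29% in bone LiTra, 5.19% in gingiva Li and 11.4% in gingiva LiTra. Cathepsin K (Ctsk), the main collagen-degrading protease of osteoclasts, rose by 1.54 ± 0.29 in bone Li and 2.04 ± 0.39 in gingiva Li. Of 11 TGF-beta ligands and readouts 1 rose in bone Li, 3 in bone LiTra, 3 in gingiva Li and 5 in gingiva LiTra. None of these 5 lists had a called gene in Tra against Co in either tissue, where 0% of all genes were called.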

How the data were processed

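TRIzol and NucleoSpin columns gave the RNA of bone and gingiva, which was enriched for poly(A), per the labels' protocols. The authors deposited 1 table of gene counts per tissue, whole numbers for 55359 Ensembl genes. Per the submitters' processing notes, HISAT2 2.2.1, Trimmomatic 0.39, StringTie 2.1.7, DESeq2 1.32.0, FastQC 0.11.9 and the build GRCm39 are named, with no roles. Strand use in counting is not given in the sources used here, and genes that overlap may share reads. Columns with CR were read as Tra, since the treatment label names composite resin. Total counts were 36913075 to 70793037 per library. No libraries of a group held identical values or differed by as little as sampling noise. Nothing in the labels says that libraries come from separate animals, and the p-values reflect only how these libraries vary, which may be technical.

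Symbols came from GENCODE M21 (52083 of 55359 matched). The main test was edgeR 4.0.16 (R 4.3.3) with its quasi-likelihood fit on TMM scaling after filterByExpr (minimum count 10, minimum total 15), two-sided, with Benjamini-Hochberg adjustment over all genes tested. All 16 libraries of a tissue, or all 32, entered 1 fit, for 15 comparisons. CPM per kb used the length of the first GENCODE transcript. Likeness is Pearson's r of log2 CPM (prior count 2) over 16 libraries. Alternatives were DESeq2 1.42.0 and its size factors, library totals, other filters, limma 3.58.1 (voom), a replicate block, the compared groups alone, and fits without libraries, of which that without the 5 bone libraries over 10% nasal gland counts was chosen after seeing the data. In simulated counts 100 genes with higher counts were changed 2-fold and 100 were changed 4-fold, and all others were left unchanged. Called shares were 35% at 2-fold and 75% at 4-fold for bone Li against Co (20625 genes), and 66% and 94% for gingiva (19595 genes). The simulated libraries lacked the uneven composition of the bone libraries, so these shares hold for that setting only. The 8 genes, the 5 pathway lists and 13 marker lists were chosen with earlier results of these data known. All 8 genes are named, and up to 4 called genes of each pathway list by adjusted p, except a gene that is not reported here.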

Additional observations from a re-analysis of the deposited data

Results flagged for a closer look

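In 4 of the 64 sets of 4 libraries (8 genes, 8 groups) 1 library lay far from the other 3 by Dixon's test at the 95% level, and chance alone gives about 1 in 20. Loxl2 in bone Co was lowest in Co 3, at 138.7 CPM, with the other 3 at 354 to 384 CPM. Loxl3 in bone LiTra was lowest in LiTra 1, at 50.4 CPM, with the others at 87.0 to 94.2 CPM. Nasal gland markers took 46.7% of the counts of bone Co 3 and 49.9% of those of bone LiTra 1. In gingiva Li 2 was the highest for Loxl1, at 63.3 CPM beside 16.6 to 23.5 CPM, and for Fbn1, at 258 CPM beside 88.3 to 115 CPM.

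The LiTra effect differed between bone and gingiva for Loxl4, with a difference of 1.76 on the log2 scale, and for Fbn2, with -1.34. The sources of these differences were not tested.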

How the results depend on the processing

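No single-gene value reversed a call: of 3392 values under an alternative, 3313 kept their side of the threshold, 50 lost a call and 29 gained one. Scaling by library totals alone left 0 of the 8 genes called in bone Li against Co, in bone LiTra against Co, in bone LiTra against Tra and in the LiTra effect between tissues, where 3, 5, 2 and 2 were called. In that order it called 0.0236, 0.0566, 0.0236 and 0.0754% of all genes. That scaling moved the median of all genes by 0.15 in bone Li against Co, 0.11 in bone LiTra against Tra, -0.10 in bone LiTra against Li and 0.15 in gingiva LiTra against Tra. With the compared groups fitted alone, 1 gene was called in bone LiTra against Tra and 2 in gingiva Li against Co, where Lox, Loxl2 and Loxl3 lost the call (adjusted p = 0.065, 0.0954 and 0.0505) and Eln gained it. Of all genes 2.23% and 2.16% were called in those fits, beside 5.56% and 7.49% in the main fit. For the Li effect between tissues, with 0 called, DESeq2 called 1 and the fit without bone Co 3, Tra 3 and LiTra 1 called 2. Those fits called 9.37% and 5.87% of all genes, beside 2.04% in the main fit. For the LiTra effect limma-voom called 4, with 22.2% of all genes called beside 12.3% in the main fit. The causes were not tested. Leaving out 1 library at a time gave 0 to 1 called for the Li effect and 1 to 3 for the LiTra effect.

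Deviations of libraries from their group means were compared by Pearson's r. It was -0.33 to 0.545 between same-numbered bone libraries (median -0.08) and -0.47 to 0.51 between bone libraries of unlike numbers (median 0.03). Between bone and gingiva libraries of the same group it was -0.11 to 0.18 for the same number and -0.16 to 0.15 for unlike numbers. A low r cannot show that libraries come from different animals, so whether the numbers pair them is not known. With the replicate block the Li effect between tissues had 1 call, Loxl4 (adjusted p = 0.0237), with 1.83% of all genes called. No other count of called genes moved by more than 1.5 times. Loxl4 and Fbn2 in gingiva rest on the lowest counts, down to 48 in a library, with standard errors of 0.25 and 0.31 in Li against Co beside 0.33 for Lox.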
